A study of Saccharomyces cerevisiae with 18 samples.

Results

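The change in transcript levels of budding yeast between 10-20 nM and 50-100 nM *α*-pheromone was measured in 8 of the 18 RNA-sequencing libraries of the dose series. The libraries were chosen by their labelled dose. The lower group held 5 libraries (10, 15 and 20 nM of experiment 1, 10 and 20 nM of experiment 2) and the higher group 3 (50 and 100 nM of experiment 1, 50 nM of experiment 2). All came from 1 *MAT***a** strain, yAA95, a derivative of SEY6210a, harvested 60 min after pheromone was added to aliquots of an exponential culture in SD medium. The strain carries a sfGFP reporter behind the *FUS1* promoter and lacks *BAR1*, *MFα1*, *MFα2* and *ARG4*. Its background has, by the study's methods, a non-functional *kss1*, the gene of the MAPK that partly overlaps with Fus3. All groups share these alleles. Each experiment was 1 culture split over the doses, with 1 library a dose. The p-values measure the spread between aliquots of 2 cultures, which includes differences between the doses pooled in a group. The 100 and 15 nM doses were used in experiment 1 only. The comparison asks which genes still moved once the mating genes had been switched on.

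In *MAT***a** cells, *α*-pheromone binds the receptor Ste2, and a G protein and a MAPK cascade ending in Fus3 activate the transcription factor Ste12, which binds the pheromone response element TGAAAC before genes of mating. Fus3 also activates Far1, which halts the cell cycle in G1, before the transcription factors SBF and MBF start the G1/S wave of genes. At higher doses the cells grow a mating projection, and remodelling of its wall engages a further MAPK pathway, that of cell wall integrity (Mid2 and Wsc sensors, Rho1, Pkc1, Slt2, the factor Rlm1), and calcium signalling through calmodulin and calcineurin.

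Values are RPKM, the reads on a gene scaled to its length and to the mapped reads of the library. The 8 libraries held 9850001 to 15560051 mapped reads, recovered from the steps between low RPKM values. The level that 3 reads give a gene of 1000 bases was 0.193 to 0.305 RPKM, which allows for counting error alone. The markers of *MAT***a** cells were high in all 8 libraries, with *STE2* at 954 to 1196 RPKM and *MFA2* at 1355 to 2283 RPKM. Of the *MATα* markers, *STE3* was at 1.17 to 2.27 RPKM and *SAG1* at 10.5 to 24.0 RPKM, lower at 50-100 nM (-0.79, adjusted p = 0.0131). The deleted genes did not exceed 0.269 RPKM. A difference is given as log2 of (RPKM + 1) at 50-100 nM less that at 10-20 nM, from limma with the experiment as a block and Benjamini-Hochberg adjustment over all genes tested. This scale understates the change of genes with low RPKM. A gene is called here at an adjusted p under 0.05 and a change of at least 2-fold.

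Of 5946 genes tested, 54 were called higher (0.908%) and 36 lower (0.605%) at 50-100 nM. Counts of called members of the gene lists below are to be read against these shares. An unadjusted p under 0.05 was found for 2057 genes (34.6%), of which 651 were higher (10.9% of all) and 1406 lower (23.6%). The median difference of all genes was -0.06, that of the rises 1.41 and that of the falls -1.35. The calls counted 38 protein-coding genes, 10 of 79 tRNA genes, 4 of 35 Ty retrotransposon reading frames and 2 IDs with no match in the R64 annotation among the rises. The falls were 35 protein-coding genes and 1 such ID. None of the 80 snoRNA and snRNA genes tested was called by limma, and 12 had an unadjusted p under 0.05, a smaller share than the 34.6% of all genes. The RPKM of the groups did not overlap for 52 of the 54 rises and all 36 falls, where 6.39% of all genes lay wholly higher and 14% wholly lower. In these bulk samples, fewer cells with a transcript and less transcript per cell cannot be told apart.

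**Figure D1:**
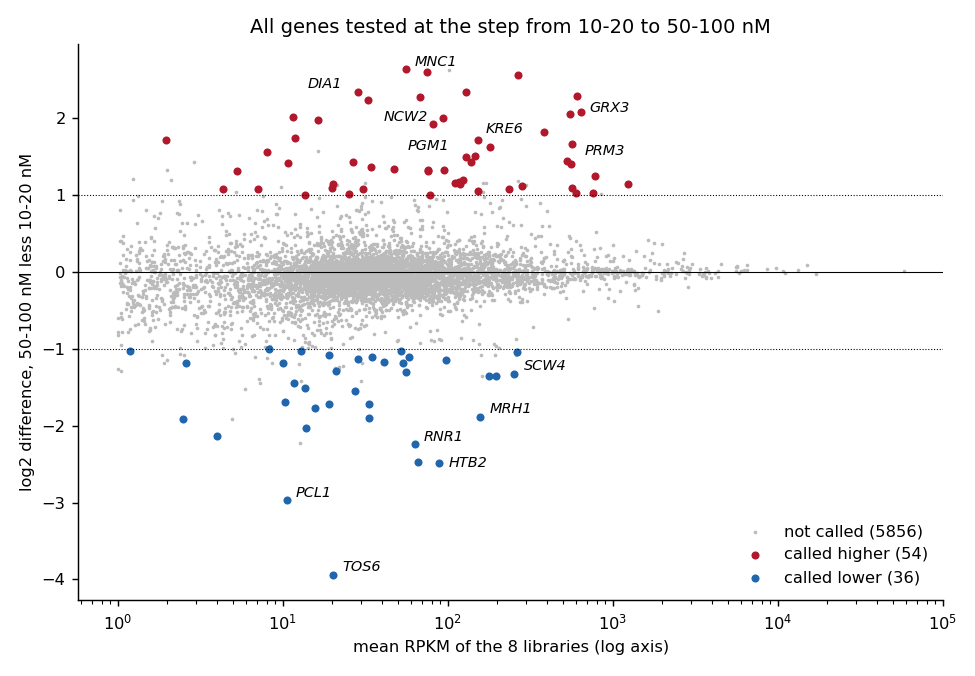
Each point is 1 of the 5946 genes tested, with its mean RPKM over the 8 libraries (log axis) and its log2 difference between 50-100 nM and 10-20 nM. The 54 genes called higher (red) and 36 called lower (blue) lie beyond the dotted 2-fold lines, and *TOS6* and *PCL1* lie lowest, at -3.94 and -2.97.

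The size of these lists rested on single libraries. Counts of rises and falls were 36 and 25 without the 10 nM library of experiment 1, 53 and 63 without its 15 nM library, 12 and 11 without its 20 nM library, 35 and 22 without its 50 nM library and 15 and 11 without its 100 nM library. Without the 10, 20 or 50 nM library of experiment 2 they were 16 and 14, 73 and 47, and 38 and 19. The adjusted p of the rises lay between 0.00257 and 0.0499, and 64.8% of them were above 0.02.

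**Figure D2:**
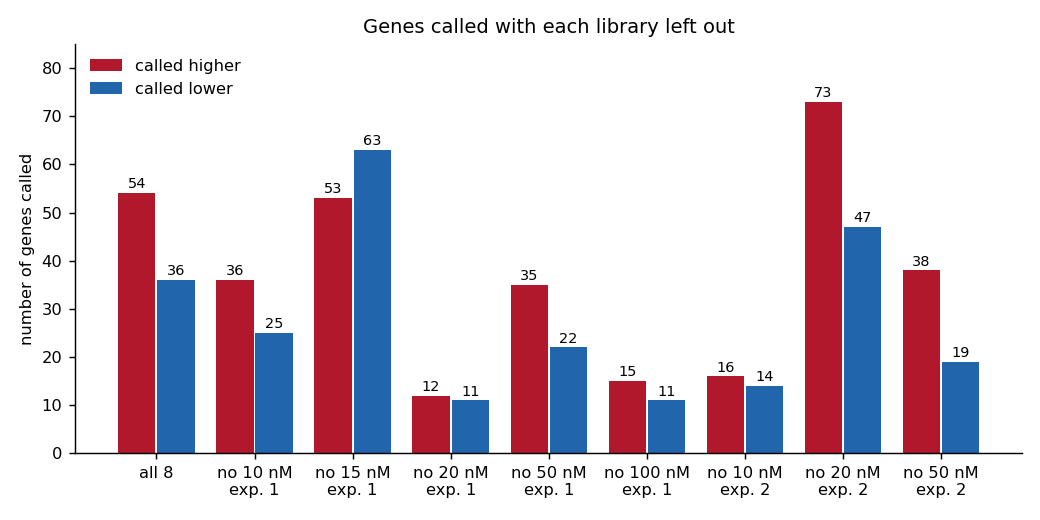
Bars give the number of genes called higher (red) and lower (blue) at 50-100 nM with all 8 libraries and with each library (dose, experiment) left out. The counts range from 12 to 73 for rises and from 11 to 63 for falls.

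Called in the full set and with any single library left out were 7 rises and 8 falls. The rises were *KRE6*, *PGM1*, *DIA1*, *GRX3*, YJL218W, a Ty reading frame (YJL113W) and an aspartate tRNA gene, and the falls *MRH1*, *VCX1*, *SCW4*, *NCE102*, *NCA3*, YHR020W, YCR090C and YGL193C. YJL218W, *NCE102*, *NCA3*, YHR020W, YCR090C and YGL193C are named for this count after their values had been seen.

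*KRE6* (YPR159W, chromosome XVI from 857583 to 859745 in R64), which encodes a membrane protein needed for the synthesis of β-1,6-glucan of the cell wall, had the lowest adjusted p of the rises together with *PGM1*. *KRE6* was at 175, 235 and 200.4 RPKM at 10, 15 and 20 nM in experiment 1 and at 146.5 and 215.5 RPKM at 10 and 20 nM in experiment 2, against 685 and 801 RPKM at 50 and 100 nM in experiment 1 and 602 RPKM at 50 nM in experiment 2. All 3 values at 50-100 nM were above all 5 at 10-20 nM, while the 4 libraries with no more than 0.25 nM averaged 136 ± 3.50 RPKM (SD, n = 4). The difference was 1.83 (standard error 0.14, adjusted p = 0.00257). *PGM1* (YKL127W, chromosome XI from 203541 to 205253) encodes a phosphoglucomutase, which interconverts glucose-1-phosphate and glucose-6-phosphate. *PGM1* was at 75.9, 88.6 and 72.3 RPKM at 10, 15 and 20 nM in experiment 1 and at 60.7 and 77.4 RPKM at 10 and 20 nM in experiment 2, against 205 and 268 RPKM at 50 and 100 nM in experiment 1 and 181 RPKM at 50 nM in experiment 2. Again the groups were apart, and the 10-20 nM values lay on both sides of the mean of those 4 libraries, 67.4 ± 3.66 RPKM (SD, n = 4). The difference was 1.50 (standard error 0.12, adjusted p = 0.00257).

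*GRX3* (YDR098C, chromosome IV from 644178 to 644930), a monothiol glutaredoxin that takes part in iron sensing, rose by 2.09 (standard error 0.28, adjusted p = 0.0132) on the log2 scale and was among the most abundant transcripts of the rises. It was at 178, 392, 303, 205.5 and 409.7 RPKM in the 5 libraries at 10-20 nM (10, 15 and 20 nM of experiment 1, then 10 and 20 nM of experiment 2) and at 1163, 1360 and 1103 RPKM in the 3 at 50-100 nM (50 and 100 nM of experiment 1, then 50 nM of experiment 2), an order kept for the values of single genes below. Within the lower group, its 20 nM value was above its 10 nM value in both experiments. *DIA1* (YMR316W, chromosome XIII from 904825 to 905835), named for digging into agar, was at 8.38, 9.55, 10.4, 8.65 and 11.1 RPKM and then at 45.4, 104 and 32.4 RPKM, a difference of 2.35 (standard error 0.30, adjusted p = 0.0115). Its 100 nM library stood above both 50 nM libraries, and its coding sequence overlaps YMR316C-A on the other strand. The largest rise of a named gene was that of *MNC1* (YBR056W-A, chromosome II from 351255 to 351455), from 17.0, 15.7, 12.8, 10.6 and 19.8 RPKM to 90.8, 233 and 48.0 RPKM, or 2.64 (standard error 0.40, adjusted p = 0.016).

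No gene that receives or relays the signal passed the test. Of 15 genes from the receptor to the MAPK and its targets, none was called by limma and none had an adjusted p under 0.05. Of them 2 were higher and 2 lower at an unadjusted p under 0.05 (10.9% and 23.6% of all genes). The groups did not overlap for 1, where 6.39% of all genes lay wholly higher and 14% wholly lower. The median difference was 0.04. The gene whose groups were apart was *KSS1*, the MAPK non-functional in this background (0.18, adjusted p = 0.069, 27.3 to 30.3 RPKM at 10-20 nM and 32.5 to 33.5 RPKM at 50-100 nM). *STE2* (YFL026W, chromosome VI from 82580 to 83875), the receptor gene, was at 954, 1196, 1188, 1038 and 1137 RPKM at 10-20 nM and at 1148, 1033 and 1127 RPKM at 50-100 nM. The groups overlapped, and the difference was 0.00 (standard error 0.09, adjusted p = 0.979). For *FUS3* (YBL016W, chromosome II from 192451 to 193512), the gene of the MAPK, the values were 215, 306, 289, 176 and 248 RPKM and 267, 245.5 and 248 RPKM, with a difference of 0.05 (standard error 0.15, adjusted p = 0.838). *FAR1* (YJL157C, chromosome X from 123836 to 126328), whose product mediates G1 arrest and polarity, was at 231, 331, 310.2, 232.5 and 293 RPKM and 350.1, 342 and 327 RPKM (0.29, adjusted p = 0.136). The member with the lowest difference was *STE20*, the kinase at the head of the cascade, at -0.21 (adjusted p = 0.0573).

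The negative regulators of the pathway did not move together. *SST2* (YLR452C, chromosome XII from 1039270 to 1041366), the GAP of the Gα protein, was at 304, 393, 389, 288.5 and 337 RPKM at 10-20 nM and at 383, 352 and 345.5 RPKM at 50-100 nM, with overlapping groups and a difference of 0.07 (standard error 0.10, adjusted p = 0.639). *MSG5* (YNL053W, chromosome XIV from 529942 to 531411), the phosphatase of Fus3, was at 37.7, 58.7, 56.1, 36.4 and 50.6 RPKM and then 84.4, 107 and 75.3 RPKM. *DIG2* (YDR480W, chromosome IV from 1417399 to 1418370), an inhibitor of Ste12, was at 23.7, 25.2, 22.4, 16.6 and 20.5 RPKM and then 41.3, 45.2 and 32.1 RPKM. The groups were apart for both, and both rose by less than 2-fold, *MSG5* by 0.87 (standard error 0.17, adjusted p = 0.0247) and *DIG2* by 0.81 (standard error 0.08, adjusted p = 0.00524). *PTP2* (YOR208W, chromosome XV from 733925 to 736177), a tyrosine phosphatase of MAPKs, rose by 0.86 (standard error 0.19, adjusted p = 0.0315), from 16.4, 16.1, 18.7, 11.6 and 13.9 RPKM to 26.1, 47.3 and 19.6 RPKM, and its 100 nM library was the highest.

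*DIG1*, the paralogue of *DIG2* that also inhibits Ste12, fell by less than 2-fold, at -0.38 (adjusted p = 0.0214), though its groups overlapped (26.0 to 38.6 RPKM at 10-20 nM and 22.4 to 27.4 RPKM at 50-100 nM). The only one of the 9 dampers called was *ASG7* (YJL170C, chromosome X from 101150 to 101779), an **a**-specific gene whose product acts on the Gβ subunit. It was at 326, 739, 574, 334 and 669.9 RPKM and then 1192, 1286 and 1123 RPKM, with groups apart and a difference of 1.25 (standard error 0.29, adjusted p = 0.0362). The median of the 9 was 0.81, and 4 were higher and 1 lower at an adjusted p under 0.05, where 4.07% and 7.25% of all genes were. *ASG7* was called without the 10 or 15 nM library of experiment 1 or the 20 nM library of experiment 2 and not without any of the other 5.

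Several members of the cell fusion and karyogamy lists were called higher, all of them *PRM* genes. Of 12 tested members of the cell fusion list 4 were called higher (0.908% of all genes) and none lower (0.605%). The median difference of the 12 was 0.96. In 10 of them all 50-100 nM values were above all 10-20 nM values, as in 6.39% of all genes. *PRM8*, a membrane protein induced by pheromone (YGL053W, chromosome VII from 402589 to 403302) went from 236, 472, 399, 187 and 349.7 RPKM to 911, 928 and 765 RPKM, a difference of 1.45 (standard error 0.25, adjusted p = 0.0215). Of its coding sequence, 36.5% of the 50-base stretches also occur elsewhere in the genome. *PRM10* (YJL108C, chromosome X from 217705 to 218856) went from 38.7, 54.3, 54.4, 33.0 and 54.6 RPKM to 108.5, 178 and 84.3 RPKM (1.31, adjusted p = 0.0215). It overlaps slightly with its neighbour YJL107C (gap of -4 bases), which was called higher as well. *PRM4* and *PRM1* were the other 2 called. *PRM4* differed by 1.12 (adjusted p = 0.039) and *PRM1*, which acts when the plasma membranes of mating partners fuse, by 1.10 (adjusted p = 0.0348).

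*FUS1* (YCL027W, chromosome III from 71803 to 73341), a membrane protein of the fusion site and the source of the reporter's promoter, was not called. It was at 198, 322, 269.9, 139 and 238.5 RPKM at 10-20 nM and at 377, 358.5 and 321 RPKM at 50-100 nM, with overlapping groups and a difference of 0.62 (standard error 0.20, adjusted p = 0.0731). Among 10 karyogamy genes, *PRM3* (YPL192C, chromosome XVI from 182655 to 183056), needed for fusion of the nuclear envelopes, was called, from 146, 426, 333, 216.5 and 553 RPKM to 896, 948 and 996 RPKM (1.66, standard error 0.38, adjusted p = 0.0368). The kinesin gene *KAR3* rose by 0.94 (adjusted p = 0.0239) and its partner *CIK1* by 0.84 (adjusted p = 0.0348), both under 2-fold. The karyogamy genes called were 1 or 2 without the 10 or 15 nM library of experiment 1 or the 20 nM library of experiment 2, and 0 without any of the others. No agglutinin or **a**-factor gene of 10 was called by limma, 2 were higher and 3 lower at an unadjusted p under 0.05 (10.9% and 23.6% of all genes), and limma-voom on recovered reads called 1. *FIG2*, an adhesin of the mating projection, differed by 1.18 (adjusted p = 0.0634, 69.5 to 329.6 RPKM at 10-20 nM and 274 to 474 RPKM at 50-100 nM), and *AGA2*, the adhesion subunit of **a**-agglutinin, by -0.44 (adjusted p = 0.0837), from 1198, 1668, 1697, 1535 and 1814 RPKM to 1228, 874 and 1372 RPKM.

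*PRM3*, *PRM8* and *ASG7* were also higher at 20 than at 10 nM in both experiments. The count of called members of the cell fusion list depended on the library left out. It ranged from 0 (without the 20 or 100 nM library of experiment 1) to 6 (without the 20 nM library of experiment 2). *PRM3* and *ASG7* were each called with 3 of the 8 libraries left out in turn and *PRM8* with 4, with differences of 1.38 to 1.88, 1.05 to 1.41 and 1.28 to 1.58.

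**Figure D3:**
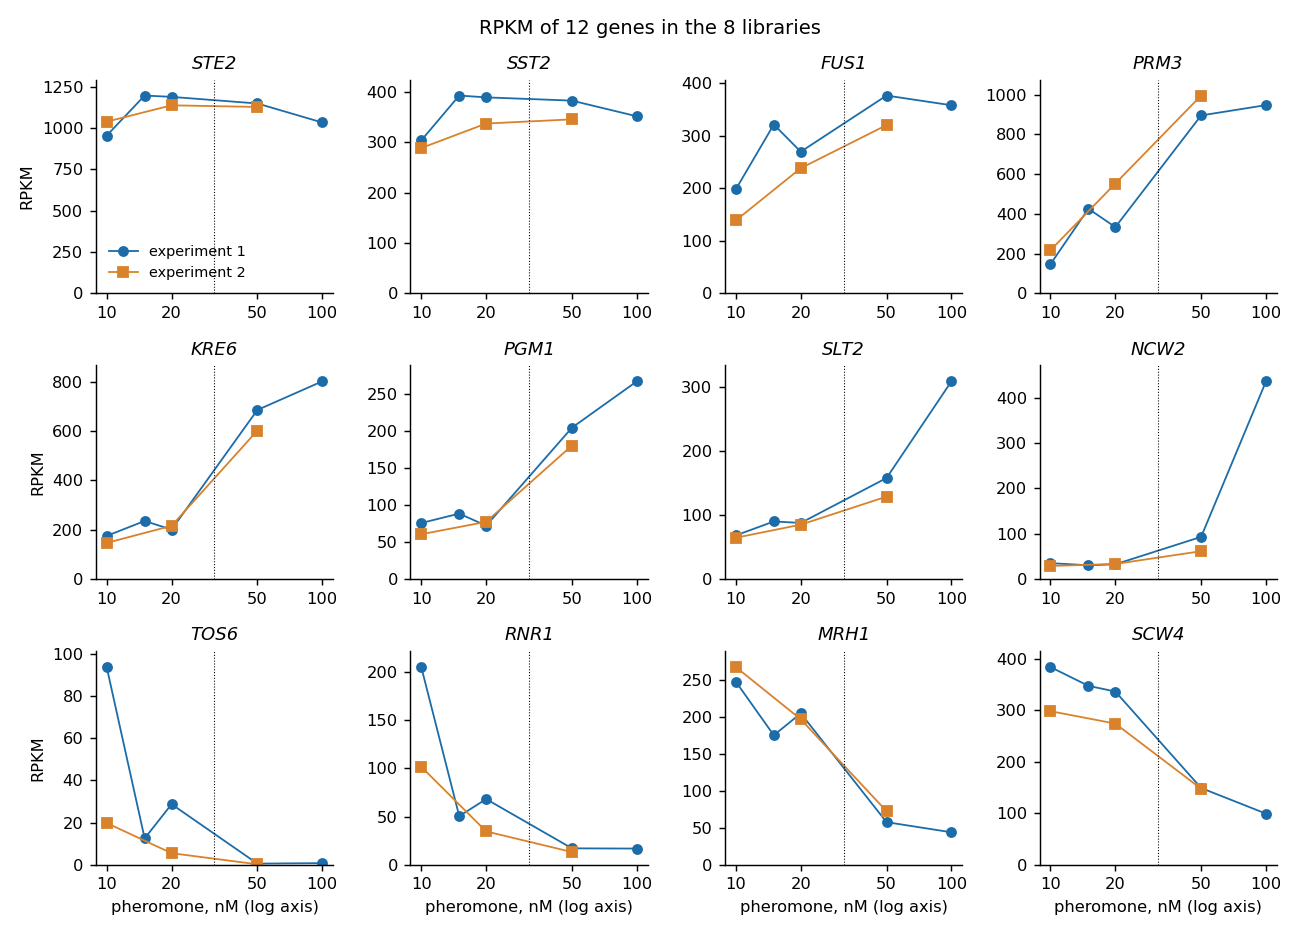
RPKM of 12 genes (linear axis from 0) against dose (log axis) in experiment 1 (circles) and experiment 2 (squares), 1 library a point, with the dotted line between 20 and 50 nM. *STE2* and *SST2* have overlapping values on either side of the line, *PRM3* was higher at 20 than at 10 nM and higher again beyond the line, *KRE6* and *PGM1* were at most 235 and 88.6 RPKM left of it, *NCW2* reached 436 RPKM at 100 nM, and *TOS6* and *RNR1* were highest at 10 nM.

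TGAAAC, on either strand in the 500 bases before the coding start of R64, occurred before 23 of the 38 protein-coding rises (60.5%), 10 of the 35 falls (28.6%) and 29.8% of 5493 genes. At least 2 copies stood before 10 rises (26.3%), 2 falls (5.71%) and 5.5% of all genes. The stretches that hold the copies are shown for mating genes and for the wall genes *CHS1* and *SLT2*, all called higher, and for *SST2*, which has 2 copies and did not pass the test, so that they can be set side by side. For *ASG7*, 2 of its 3 copies are in the stretch shown. Capitals mark TGAAAC or its reverse complement GTTTCA, and each runs 5′ to 3′ towards the gene.
ASG7 (chrX:101927-101995, reverse strand, 216 to 148 bases before the coding start): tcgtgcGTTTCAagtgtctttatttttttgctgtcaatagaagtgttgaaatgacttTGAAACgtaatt
PRM1 (chrXIV:110731-110770, forward strand, 186 to 147 bases before the coding start): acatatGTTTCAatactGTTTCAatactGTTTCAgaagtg
PRM10 (chrX:219215-219294, reverse strand, 438 to 359 bases before the coding start): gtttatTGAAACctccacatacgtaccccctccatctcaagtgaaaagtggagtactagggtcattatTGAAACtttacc
PRM4 (chrXVI:256887-257041, reverse strand, 274 to 120 bases before the coding start): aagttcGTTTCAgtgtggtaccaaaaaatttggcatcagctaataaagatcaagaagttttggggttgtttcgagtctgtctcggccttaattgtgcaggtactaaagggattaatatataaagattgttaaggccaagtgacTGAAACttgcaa
CHS1 (chrXIV:276104-276172, forward strand, 398 to 330 bases before the coding start): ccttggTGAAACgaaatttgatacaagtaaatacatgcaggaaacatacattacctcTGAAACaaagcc
SLT2 (chrVIII:170575-170592, reverse strand, 248 to 231 bases before the coding start): tggaaaGTTTCAgtgtta
SST2 (chrXII:1041600-1041636, reverse strand, 270 to 234 bases before the coding start): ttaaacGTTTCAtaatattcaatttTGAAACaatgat
*PRM1* has 3 copies within 40 bases. No copy lies in this window of *KRE6*, *GRX3* or *MSG5*, which says only that these letters are not in it. The binding motif of Rlm1 stood before 3 rises (7.89%), 1 fall (2.86%) and 1.77% of all genes, and that of Crz1, the calcineurin-regulated factor (GNGGCTCA or GNGGCGCA on either strand), before 4 rises (10.5%), 1 fall (2.86%) and 3.77% of all genes.

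Of the genes that build the cell wall, some rose and some fell. Of 19 genes of chitin and glucan synthesis, 3 were called higher and none lower (median 0.15). Besides *KRE6* these were *GSC2* (YGR032W, chromosome VII from 548264 to 553951), an alternative catalytic subunit of β-1,3-glucan synthase, and *CHS1* (YNL192W, chromosome XIV from 276502 to 279897), the chitin synthase that repairs the wall. *GSC2* was at 50.5, 64.7, 56.6, 51.3 and 67.0 RPKM at 10-20 nM and at 121, 232.5 and 113 RPKM at 50-100 nM. Its difference was 1.33 (standard error 0.22, adjusted p = 0.0195). *CHS1* went from 137, 218, 181, 105 and 185 RPKM to 335, 435 and 283 RPKM, a difference of 1.08 (standard error 0.21, adjusted p = 0.0239). The main glucan synthase subunit *FKS1*, in contrast, was at -0.35 (adjusted p = 0.199, 213 to 451 RPKM at 10-20 nM and 200.5 to 288 RPKM at 50-100 nM). *GFA1*, the first enzyme of the chitin precursor, rose by less than 2-fold (0.86, adjusted p = 0.0239). The number of chitin and glucan genes called was 1 without the 20 nM library of experiment 1 or the 10 nM library of experiment 2 and 2 or 3 otherwise.

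Of 18 genes of cell wall integrity signalling, *SLT2* (YHR030C, chromosome VIII from 168890 to 170344), the MAPK of that pathway, was the only one called (median 0.01). It was at 68.0, 89.8, 87.5, 64.4 and 84.8 RPKM and then 157.5, 308 and 128.5 RPKM, so that the groups were apart and the 100 nM library was highest. The difference was 1.20 (standard error 0.23, adjusted p = 0.0251). It was not called without the 20 or 100 nM library of experiment 1 or the 10 nM library of experiment 2. The 8 fits gave differences of 0.87 to 1.43. Under 2-fold, the sensors *MID2* (0.84, adjusted p = 0.0487) and *WSC2* (0.61, adjusted p = 0.0251), the GTPase *RHO1* (0.45, adjusted p = 0.0183) and the transcription factor *RLM1* (0.55, adjusted p = 0.0452) rose. *SWI4*, the DNA-binding subunit of SBF, fell (-0.58, adjusted p = 0.0397) and so did the kinase *BCK1* (-0.35, adjusted p = 0.0477). *KDX1*, a pseudokinase paralogue of Slt2, was at 12.1, 13.1, 12.3, 11.5 and 11.3 RPKM and then at 19.9, 77.3 and 14.5 RPKM, with an adjusted p of 0.093. Its 100 nM library was far above its 2 libraries at 50 nM.

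Among 26 cell wall proteins 3 were called higher and 1 lower, with a median of 0.05. The count of rises was 0 without the 10 or 20 nM library of experiment 1 or the 10 nM library of experiment 2. It was 1 without the 100 nM library of experiment 1 or the 50 nM library of experiment 2, and 2 or 3 without any of the others. *NCW2* (YLR194C, chromosome XII from 540809 to 541573), a structural wall protein, was at 35.0, 30.4, 32.5, 28.9 and 33.3 RPKM at 10-20 nM and at 93.0, 436 and 61.4 RPKM at 50-100 nM. The groups did not overlap, but the 100 nM library alone was many times above the others. The difference of 2.01 (standard error 0.49, adjusted p = 0.0411) was 1.24 without it. *NCW2* was called with 2 of the 8 libraries left out in turn. *YPS1* (YLR120C, chromosome XII from 386511 to 388220), an aspartic protease of the cell surface, went from 99.0, 124, 114, 86.8 and 109 RPKM to 195.5, 320.1 and 182 RPKM (1.06, adjusted p = 0.0171). *SCW10*, a glucanase-like wall protein, rose by 1.02 (adjusted p = 0.0196). *SCW4* (YGR279C, chromosome VII from 1048798 to 1049958), the paralogue of *SCW10*, fell, from 384, 347, 336, 298 and 274 RPKM to 149, 99.2 and 148 RPKM, with groups apart and a difference of -1.33 (standard error 0.16, adjusted p = 0.00972). It was called with any library left out. Under 2-fold, *UTR2* (-0.93, adjusted p = 0.0157), a chitin transglycosylase, *TIP1* (-0.88, adjusted p = 0.0309) and *PIR1* (-0.64, adjusted p = 0.0126), both wall mannoproteins, fell.

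Of 17 genes of calcium signalling, 1 was called higher and 1 lower (0.908% and 0.605% of all genes), and the median was 0.18. At an adjusted p under 0.05, 6 were higher and 1 lower, where 4.07% and 7.25% of all genes were. *CMK2* (YOL016C, chromosome XV from 294777 to 296120), a calmodulin-dependent kinase, was at 31.1, 26.7, 27.2, 24.6 and 29.0 RPKM and then at 65.1, 129 and 46.6 RPKM, a difference of 1.35 (standard error 0.24, adjusted p = 0.0216). The calcium genes called higher were 0 without the 20 or 100 nM library of experiment 1 or the 10 nM library of experiment 2, and 1 or 2 without any of the others. With no more than 0.25 nM *CMK2* averaged 29.6 ± 2.31 RPKM (SD, n = 4), within the range of the 10-20 nM libraries. *RCN2*, a regulator of calcineurin, was at 0.99 (adjusted p = 0.0232), the sodium pump gene *ENA1* at 0.62 (adjusted p = 0.0358), and the vacuolar calcium pump gene *PMC1* at 0.54 (adjusted p = 0.0487). *VCX1* (YDL128W, chromosome IV from 232652 to 233887), the vacuolar exchanger of calcium for protons, fell from 85.6, 60.3, 67.6, 83.8 and 64.7 RPKM to 27.5, 25.8 and 32.1 RPKM, with groups apart and a difference of -1.30 (standard error 0.13, adjusted p = 0.00524).

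**Figure D4:**
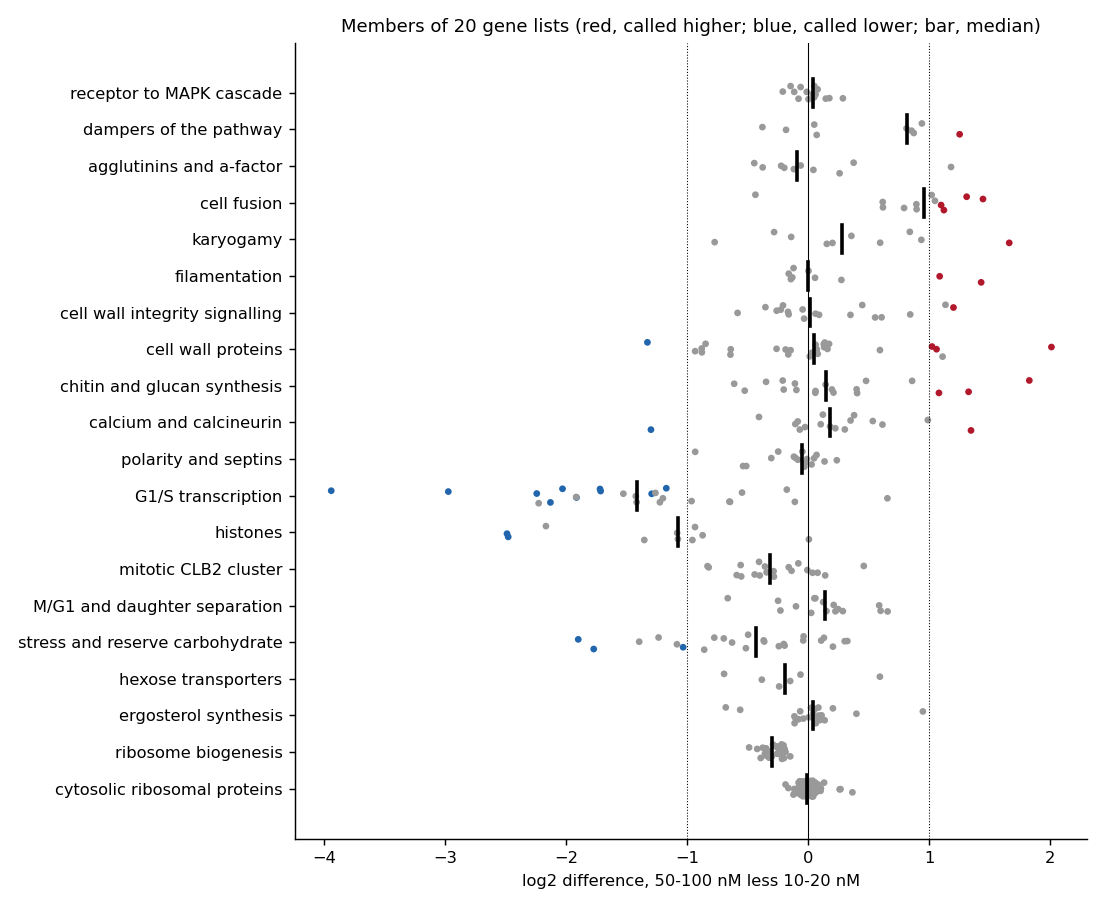
Each point is the log2 difference (50-100 nM less 10-20 nM) of 1 tested member of a list, red where called higher, blue where called lower, and the bar is the list's median. The medians of cell fusion (0.96) and of the dampers (0.81) lie to the right, and those of G1/S transcription (-1.42) and the histones (-1.08) to the left.

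On the log2(RPKM + 1) scale, the 2 lowest differences of all genes were those of *TOS6* and *PCL1*, of the G1/S wave. Of 25 G1/S genes none was called higher (0.908% of all genes) and 10 lower (0.605%). In 18 of them all 50-100 nM values were below all 10-20 nM values, as in 14% of all genes. The median of the 25 was -1.42. *TOS6* (YNL300W, chromosome XIV from 65744 to 66052), a glycoprotein gene and target of SBF, was at 93.8, 12.5, 28.7, 19.8 and 5.50 RPKM at 10-20 nM and at 0.551, 0.789 and 0.240 RPKM at 50-100 nM, a difference of -3.94 (standard error 0.63, adjusted p = 0.0175). *TOS6* is shorter than the gene length for which the level of 3 reads is given above. Its own level is therefore higher, and few reads lie behind its values at 50-100 nM. *PCL1* (YNL289W, chromosome XIV from 87897 to 88736), a G1 cyclin of the kinase Pho85, was at 37.0, 6.29, 12.6, 23.4 and 3.48 RPKM and then 1.01, 0.483 and 0.704 RPKM (-2.97, standard error 0.64, adjusted p = 0.0315). *RNR1* (YER070W, chromosome V from 298950 to 301616), the large subunit of ribonucleotide reductase, was at 205, 50.5, 68.1, 102 and 34.6 RPKM and then 17.1, 16.8 and 13.2 RPKM (-2.24, standard error 0.48, adjusted p = 0.0309). In all 3 genes the 10 nM library of either experiment was far above its 20 nM library, and in experiment 1 the 20 nM library was above the 15 nM library.

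The repressor gene *YOX1* (-2.13), the FHA-domain gene *TOS4* (-2.03), the S-phase cyclin gene *CLB6* (-1.92), the mannosyltransferase gene *MNN1* (-1.72) and the G1 cyclin gene *CLN2* (-1.17) were also called lower, with adjusted p of 0.0472, 0.0418, 0.0487, 0.0335 and 0.023. At 50-100 nM *CLB6* (0.0743 to 0.142 RPKM) and *YOX1* (0.293 to 0.383 RPKM) lay below the pseudocount of 1 RPKM, so the sizes of their falls are uncertain as well. *PCL2*, a relative of *PCL1*, was the only member with a positive difference, at 0.66 (adjusted p = 0.0598, 123 to 253 RPKM at 10-20 nM and 269.7 to 332 RPKM at 50-100 nM). Of 10 histone genes 2 were called lower, *HTA2* (YBL003C, chromosome II from 235394 to 235792) and *HTB2* (YBL002W, chromosome II from 236492 to 236887), which are divergently transcribed neighbours. *HTB2* was at 323, 53.2, 96.1, 158 and 30.8 RPKM and then 15.9, 18.5 and 15.9 RPKM (-2.49, standard error 0.65, adjusted p = 0.0472). *HTA2* differed by -2.48 (standard error 0.62, adjusted p = 0.0425). The variant histone gene *HTZ1* was at 0.01 (adjusted p = 0.984).

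These calls varied with the libraries. The number of G1/S genes called lower was 8 and 12 without the 10 and 15 nM libraries of experiment 1, 0 without its 20 or 100 nM library and 1 without its 50 nM library, and 0, 16 and 1 without the 10, 20 and 50 nM libraries of experiment 2. For histones it was 3 without the 15 nM library of experiment 1 or the 20 nM library of experiment 2 and 0 without any of the others. Limma-voom on recovered reads called 6 G1/S genes and no histone gene. At an unadjusted p under 0.05, 22 of 25 G1/S genes and 7 of 10 histone genes were lower, as were 23.6% of all genes. The median of the G1/S list stayed between -1.68 and -1.06 in these fits and that of the histones between -1.30 and -0.78.

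The SBF motif, CGCGAAA or CACGAAA on either strand, stood within 500 bases before 10 of the 35 protein-coding falls (28.6%), 5 of the 38 rises (13.2%) and 12.8% of all genes. The MBF motif ACGCGT stood before 11 falls (31.4%), 5 rises (13.2%) and 5.59% of all genes. The stretches with these motifs are shown for the falls of the G1/S list with the lowest differences that hold SBF motifs, and for 2 with MBF motifs, again 5′ to 3′ towards the gene and with the motif or its reverse complement in capitals.
TOS6 (chrXIV:65308-65412, forward strand, 436 to 332 bases before the coding start): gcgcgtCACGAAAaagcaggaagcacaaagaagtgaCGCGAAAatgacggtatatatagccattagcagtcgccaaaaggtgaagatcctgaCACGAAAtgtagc
PCL1 (chrXIV:87564-87615, forward strand, 333 to 282 bases before the coding start): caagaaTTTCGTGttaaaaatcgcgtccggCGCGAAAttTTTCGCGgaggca
CLB6 (chrVII:706867-706910, reverse strand, 409 to 366 bases before the coding start): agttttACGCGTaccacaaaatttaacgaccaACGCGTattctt
YOX1 (chrXIII:220906-220920, forward strand, 500 to 486 bases before the coding start): aaaACGCGTaaacca
*TOS6* and *PCL1* hold 3 SBF motifs each, and *RNR1* holds 4 copies of ACGCGT and 1 SBF motif in its window.

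*MRH1* (YDR033W, chromosome IV from 508147 to 509109), a membrane protein related to heat shock protein Hsp30, had the lowest adjusted p of the named falls. It was at 247, 175, 204.5, 267 and 196.5 RPKM at 10-20 nM and at 57.6, 43.9 and 72.3 RPKM at 50-100 nM, with a mean of 613 ± 6.38 RPKM (SD, n = 4) for 0.25 nM or less. The difference was -1.89 (standard error 0.16, adjusted p = 0.00278). YGL193C, named after its values had been seen, was at 14.7, 15.7, 15.1, 15.7 and 10.9 RPKM and then 3.55, 3.65 and 4.03 RPKM, with groups apart and a difference of -1.70 (adjusted p = 0.00257). The next gene, *IME4* (YGL192W), also named after its values had been seen, which encodes an mRNA methyltransferase, was at 9.93, 83.4, 57.2, 8.31 and 59.5 RPKM and then 203, 212 and 181 RPKM, with an adjusted p of 0.0572.

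Among 24 genes of stress and reserve carbohydrate 3 were called lower and none higher (median -0.43). *YGP1* (YNL160W, chromosome XIV from 336545 to 337609), a secreted glycoprotein of starvation, went from 62.2, 29.6, 37.2, 61.5 and 41.0 RPKM to 15.6, 7.69 and 11.2 RPKM (-1.90, standard error 0.29, adjusted p = 0.0164). *DDR2*, a stress-induced gene, differed by -1.77 (standard error 0.43, adjusted p = 0.0398) and *SOL4*, of the 6-phosphogluconolactonase family, by -1.03 (standard error 0.24, adjusted p = 0.0368). This count ranged from 0, without the 20 nM library of experiment 1 or the 50 nM library of experiment 2, to 7, without the 15 nM library of experiment 1.

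Of 9 filamentation genes tested 2 were called higher, *PGU1* (YJR153W, chromosome X from 722815 to 723900), a secreted polygalacturonase, from 8.70, 20.5, 15.7, 13.8 and 24.6 RPKM to 43.4, 36.4 and 51.8 RPKM (1.43, adjusted p = 0.0233), and *KTR2*, a mannosyltransferase of the Golgi (1.09, adjusted p = 0.0385). None of the 9 was called without the 20, 50 or 100 nM library of experiment 1 or the 10 nM library of experiment 2. *PGU1* was called with 3 and *KTR2* with 2 of the 8 libraries left out in turn. *PGU1* was one of the few rises whose 100 nM value was below both 50 nM values. Further large rises were those of *BAG7*, a GAP of Rho1 (1.75, adjusted p = 0.0353, 3.48 to 6.16 RPKM at 10-20 nM and 12.4 to 45.0 RPKM at 50-100 nM), of *BOP3* (1.64, adjusted p = 0.029, 57.8 to 155 RPKM at 10-20 nM and 249 to 358 RPKM at 50-100 nM) and of *PUG1*, a porphyrin transporter (1.56, adjusted p = 0.0313, 2.78 to 5.89 RPKM at 10-20 nM and 8.10 to 24.9 RPKM at 50-100 nM). *BAG7* and *BOP3* were each called with 3 and *PUG1* with 2 of the 8 libraries left out in turn. In *BAG7* and *PUG1* the 100 nM library was far above those at 50 nM, at 45.0 and 24.9 RPKM against at most 12.55 and 11.45 RPKM.

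In the remaining lists no gene was called by limma or by limma-voom. The counts at an unadjusted p under 0.05 given for them are to be read against 10.9% of all genes higher and 23.6% lower. The 20 mitotic CLB2 cluster genes had a median of -0.31 and 1 higher and 8 lower at an unadjusted p under 0.05, with the mitotic cyclin *CLB1* at -0.83 (adjusted p = 0.0745) and the bud site gene *BUD4* at -0.82 (adjusted p = 0.0838). The 17 polarity and septin genes had a median of -0.05 and 1 higher and 4 lower at an unadjusted p under 0.05, with *GIC1*, an effector of Cdc42, at -0.93 (adjusted p = 0.137) and *SPA2*, a scaffold of the polarisome, at -0.54 (adjusted p = 0.0472). Of 16 M/G1 genes (median 0.14, 6 higher and 3 lower at an unadjusted p under 0.05), *SCW11*, a daughter-cell glucanase, was at 0.66 (adjusted p = 0.0239) and *CDC6*, which licenses replication, at -0.66 (adjusted p = 0.039). Of 6 hexose transporter genes tested (median -0.19, 1 higher and 1 lower at an unadjusted p under 0.05), *HXT2* was at 0.59 (adjusted p = 0.00761) and *HXT1* at -0.69 (adjusted p = 0.0368). Of 23 ergosterol genes (median 0.04, 3 higher and 2 lower at an unadjusted p under 0.05), *ERG24*, a sterol reductase, was at 0.95 (adjusted p = 0.016) and *ERG3*, a sterol desaturase, at -0.68 (adjusted p = 0.0309). All 30 ribosome biogenesis genes had a negative difference, none by 2-fold, with a median of -0.29. Of these, 29 were lower at an unadjusted and 7 at an adjusted p under 0.05 (23.6% and 7.25% of all genes). *DBP2*, an RNA helicase, and *BFR2* were lowest at -0.49 and -0.42. The 137 genes of cytosolic ribosomal proteins had a median of -0.01, none had an adjusted p under 0.05, and 1 was higher and 2 lower at an unadjusted p under 0.05. Their 2 largest differences were those of *RPL41B* (0.37, adjusted p = 0.239) and *RPL41A* (0.27, adjusted p = 0.293), near-identical copies that share reads.

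The shape over single doses differed among the calls. From 10 to 20 nM, 45 of the 54 rises were higher in both experiments, 23 of them by over 1.5-fold in both, whereas 18 rises differed by less than 1.5-fold in both. The median log2 difference of the rises was 0.67 from 10 to 20 nM, 1.06 from 20 to 50 nM and 0.26 from 50 to 100 nM, the latter in experiment 1 alone. The median of the falls was -0.57, -1.08 and -0.18. Between 50 and 100 nM 7 rises doubled again, *NCW2*, *SRL3*, *BAG7*, *DIA1*, *PUN1*, *PUG1* and *MNC1*, each from 1 library a dose, and none of the falls was halved again. *SRL3* and *PUN1* are named here after their values had been seen. The members of these groups were chosen on the same libraries, so these values describe them only.

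Some called genes lie side by side. Among the 42 rises with a position 12 formed 6 pairs of neighbours, and whether that is more than among all genes was not tested. Of these, *TOG1* and *PUG1* and *PMU1* and *PGM1* are transcribed divergently. *PRM10* and YJL107C overlap only slightly (gap of -4 bases). The Ty reading frames YGR109W-A and YGR109W-B overlap on the same strand (gap of -873 bases) and may share reads. *TOG1*, *PMU1*, YGR109W-A and YGR109W-B are named here for their position after their values had been seen. The tRNA genes and Ty reading frames occur in near-identical copies, between which the deposited counting may have split reads, so their rises are uncertain. The median difference was 0.25 for the 79 tRNA genes and 0.17 for the 35 Ty reading frames. At an unadjusted p under 0.05 were 20 of the 79 tRNA genes and 10 of the 35 Ty reading frames, against 34.6% of all genes.

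Whether a gene moved more at this step than at the one before, from 1-5 to 10-20 nM, was tested in a fit of all 18 libraries that takes the shared 10-20 nM libraries into account. The difference between the steps had an adjusted p under 0.05 in 88 of 5995 genes (1.47%), of which 12 (0.2%) were higher and 17 (0.284%) lower by at least 2-fold. At the preceding step itself 0.901% of all genes were called higher and 1.3% lower, and 20.1% had an adjusted p under 0.05. *KRE6* had moved by 0.36 at the preceding step and *PGM1* by 0.07, and the steps differed by 1.47 and 1.44 (adjusted p = 6.37e-04 for both). The same held for *DIA1* (2.31, adjusted p = 0.0155), *MNC1* (2.29, adjusted p = 0.0443) and *CMK2* (1.45, adjusted p = 0.0438). For *SCW4*, *VCX1* and *SOL4*, the step less the preceding one was -1.13, -0.81 and -1.56 (adjusted p = 0.0309, 0.0267 and 0.0462).

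Genes of the receptor, the MAPK and **a**-agglutinin had risen at the preceding step, and their step less the preceding one was negative. *STE2* had risen by 0.62 at the preceding step and *FUS3* by 1.19, and the step less the preceding one was -0.61 (adjusted p = 0.0341) and -1.15 (adjusted p = 0.0462). For *AGA2* it was -1.64 (adjusted p = 0.0153). For *SST2* it was -0.75 (adjusted p = 0.0711) and for *MSG5* 0.26 (adjusted p = 0.577). No difference between the steps was called for *PRM3* (-1.77, adjusted p = 0.212), *PRM8*, a membrane protein induced by pheromone (-0.44, adjusted p = 0.634), *SLT2* (0.87, adjusted p = 0.118), *NCW2* (2.28, adjusted p = 0.0764), *TOS6* (-2.41, adjusted p = 0.104) or *PCL1* (-0.84, adjusted p = 0.612). The histone and G1/S lists had already fallen at the preceding step. Their medians there were -1.685 and -1.23, with 10 of 10 and 15 of 25 genes called lower.

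**Figure D5:**
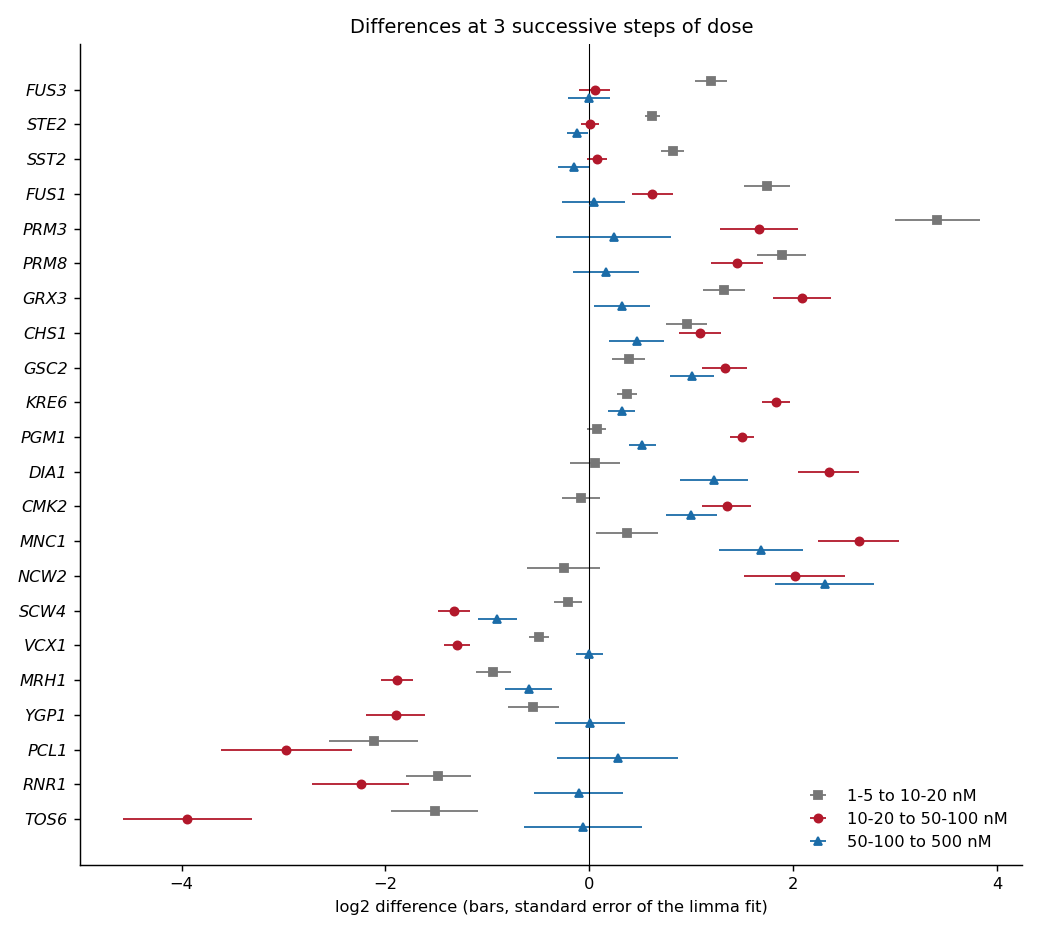
Log2 differences of 22 genes at the steps from 1-5 to 10-20 nM (squares), 10-20 to 50-100 nM (circles) and 50-100 to 500 nM (triangles), with standard errors of the limma fits (8 libraries for the middle step, 18 for the others). Neighbouring steps share libraries. The first step was 0.36 for *KRE6* and 0.62 for *STE2*, the middle step 1.83 and 0.00, and *NCW2* moved by 2.31 at the last.

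In libraries that took no part in the step, 500 nM (2) against 0, 0.05 and 0.25 nM (4), 53 of the 54 rises were called higher and 34 of the 36 falls lower, and none was called the other way. Over all genes 4.93% were called higher and 6.27% lower in that comparison, and 54% had an adjusted p under 0.05. The median difference was 3.25 for the rises and -2.28 for the falls, all 36 falls had the same sign, and the exception among the rises was a proline tRNA gene. *SOL4*, with -0.39 (adjusted p = 0.243), was not called. Its mean was 10.9 ± 3.25 RPKM (SD, n = 4) for 0.25 nM or less, 16.3 ± 4.83 RPKM (SD, n = 5) for 10-20 nM and 7.72 ± 1.57 RPKM (SD, n = 2) for 500 nM. Over all genes the following step, from 50-100 to 500 nM, had 0.801% called higher and 0.117% lower, and 20.7% at an adjusted p under 0.05. From 50-100 to 500 nM *NCW2* differed by a further 2.31 (adjusted p = 0.00722), *GSC2* by 1.01 (adjusted p = 0.00742) and *SLT2* by 0.92 (adjusted p = 0.0113), against 0.17 (adjusted p = 0.779) for *PRM8* and 0.22 (adjusted p = 0.753) for *ASG7*.

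The step was compared between the experiments with an interaction term. 1 of 5946 genes (0.0168%) had an adjusted p under 0.05, YDR118W-A, with a difference between the experiments of -2.20 (adjusted p = 0.0069). The step for *KRE6* was 1.87 and 1.75 in experiments 1 and 2, for *PRM3* 1.74 and 1.52, for *MRH1* -2.02 and -1.65 and for *NCW2* 2.59 and 0.96. It was 1.43 and 0.79 for *SLT2*, 1.54 and 0.94 for *GSC2*, 1.66 and 0.78 for *CMK2* and 1.42 and 0.48 for *KTR2*. Thus some called rises, *NCW2* among them, were under 2-fold in experiment 2. The 100 nM library enters the values of experiment 1 only. Experiment 2 had 1 library at 50-100 nM, so the interaction term cannot show that the step was alike in both.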

How the data were processed

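RNA of 18 libraries was sequenced by the authors (rRNA-depleted, random-primed, stranded, single-end), mapped with Bowtie (version 0.12.2 and sacCer3 in the submitters' processing notes; the study's methods name Bowtie 2) and deposited as strand-specific RPKM per gene, 1 table an experiment with 1 column a library. The tables hold 7126 gene IDs, of which 6048 matched the R64 annotation. Mapped reads were recovered from the RPKM steps, and 99.72 to 100% of low values were whole reads (tolerance 0.02). Reads from near-identical copies may be split between them.

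Differences were fitted with limma 3.58.1 (R 4.3.3) on log2(RPKM + 1), with the trend option, the experiment as a block and Benjamini-Hochberg adjustment, for genes with a mean of at least 1 RPKM. The counts used Python 3.11.15. The script was tested on simulated data. Each experiment was 1 culture, which pairs its libraries, and deviations from the group means of same-numbered libraries correlated at 0.435, 0.317 and 0.253 for 10 and 20, 10 and 50, and 20 and 50 nM, over 5946 genes.

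The dose groups, gene lists and members were chosen with earlier results of these data known. Named genes are the 12 largest rises and 12 largest falls with a symbol and 1 direction in both experiments, the 3 largest called members of each list (or its 2 largest members), and *SST2*, *MSG5*, *PTP2*, *DIG2*, *STE2*, *FUS3*, *FUS1* and *FAR1*. Other list members, such as *PRM1*, *SCW10*, *CLN2*, *KDX1* and *RLM1*, were named after their values had been seen. Alternatives were other pseudocounts, filters, scalings, dose sets and fits, and each library left out, and limma-voom on reads recovered for IDs with an R64 match, which include none of the 10 tRNA genes called. List counts with 1 library left out were added after the data were seen.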

Additional observations from a re-analysis of the deposited data

Results flagged for a closer look

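*TOS6* in the 10 nM library of experiment 1 stood apart from the other 4 libraries at 10-20 nM, at 93.8 RPKM against 5.50 to 28.7 RPKM. Among interchangeable libraries a gap of this size relative to the range arises by chance in about 1 of 20 groups. At that rate 3.05 of the 61 named genes would show one, and 1 did. The libraries at 10-20 nM differ in dose and experiment, and the gap was taken on RPKM, not on the log2 scale of the fits. This rate therefore cannot decide whether the gap arose by chance.

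The step of YDR118W-A differed between the experiments by -2.20 on the log2 scale (limma interaction term, adjusted p = 0.00693, 1 of 5946 genes). In experiment 1 it was at 12.6, 12.2 and 11.7 RPKM at 10, 15 and 20 nM and at 20.5 and 21.7 RPKM at 50 and 100 nM, and in experiment 2 at 21.6 and 20.3 RPKM at 10 and 20 nM and at 7.0 RPKM at 50 nM, the only library of its dose group there. The part of that library in the difference was not tested.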

How the results depend on the processing

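The counts of genes called (54 higher and 36 lower) depended mainly on which libraries were fitted. They were 24 and 19 without the 10 nM libraries, 10 and 7 without the 20 nM libraries, 17 and 22 with the doses of both experiments only, 29 and 28 for 50 against 20 nM and 10 and 9 in experiment 1 alone, with fewer libraries in each. With 1 library left out they ranged from 12 to 73 and from 11 to 63. With all 18 libraries in the fit they were 66 and 60. A pseudocount of 5 left 20 falls, and quantile normalization gave 59 rises and 25 falls, 70.2% higher against 60.0% as reported and 64.9% with libraries centred on their median. The cause of these shifts was not tested. Without the replicate block the counts were 52 and 31, and the genes whose step differed from the preceding one were 37 in place of 88. Other pseudocounts, filters and limma-voom on recovered reads stayed within 1.5 times. Limma-voom covered only IDs with an R64 match, so its counts are of a smaller set of genes and are not directly comparable.

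Only *SST2*, *STE2* and *FUS3*, none of them called, changed sign among the 61 named genes. The log2 fold change of SST2 was -0.0044 with quantile normalization and -0.050 without the 10 nM libraries. The log2 fold change of STE2 was -0.059 and -0.091 under the same settings, at -0.031 for 50 against 20 nM and at -0.023 in experiment 1 alone, and from -0.057 to 0.053 with 1 library left out. The log2 fold change of FUS3 was -0.14 without the 10 nM libraries, at -0.056 for 50 against 20 nM and -0.058 in experiment 1 alone, and from -0.058 to 0.12 with 1 library left out. Of the 36 named genes that were called, 29 moved below the threshold without the 20 nM library of experiment 1, and 31 without the 20 nM libraries. The precision is limited by 3 against 5 libraries from 2 cultures.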
